A study of Mus musculus with 20 samples.

Results

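Ligands and receptors of the tumour necrosis factor (TNF) superfamily were measured with 30 of the 648 real-time PCR assays of a TaqMan OpenArray mouse inflammation panel, in 20 RNA samples of mouse ileal mucosa. Members were taken by gene symbol: every assay whose symbol starts with Tnfsf or Tnfrsf, and those for Tnf, Ltb, Ltbr, Fas, Fasl, Cd70, Cd40 and Cd40lg. This gave 16 assays of ligands and 14 assays of receptors, for 29 genes, since Tnfrsf1a had 2 assays. Lta, Cd27 and Eda, which the same rule names, were not analysed here.

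The study compared healthy mice with mice given dinitrobenzene sulfonic acid (DNBS), a hapten used to provoke inflammation of the gut in rodents, and asked how 2 oral treatments compare with it. Healthy mice had phosphate-buffered saline (PBS) by the intrarectal and the oral route (samples 1b, 3, 4, 5 and 6). The DNBS group received DNBS intrarectally and PBS orally (samples 1 to 5). The CEC group received DNBS intrarectally and CEC orally (samples 1, 3, 5, 7 and 8). The Nissle group received DNBS intrarectally and Nissle orally (samples 1 to 5). The labels do not spell out CEC or Nissle and name no strain, age or sex. For Nissle 3, 4 and 5 a further label field names the healthy controls, whereas their titles, descriptions and both treatment fields name Nissle, so they were kept in that group. The series' design text speaks of RNA pooled across mice before the measurement, and no label ties a sample to 1 animal. The p-values therefore rest on the spread among these 20 samples alone, and that spread may be technical.

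Each assay gives a threshold cycle (Ct), the cycle at which its product is detected, and a Ct of 40 stands for no amplification. For 544 assays a Ct was recorded in each of the 20 samples, and a level here is their mean Ct in the sample minus the Ct of the assay, so a higher level is more RNA. A difference in level is a log2 difference where product doubles with each cycle. Levels of different genes were not compared, because assays may amplify with different efficiency. Between 570 and 594 assays had a value in each sample, and the mean Ct over the 544 assays ranged from 22.6 to 24.3. Within each of 4 successive blocks of equal length in the deposited table, several samples drifted from low to high or from high to low against the other samples. The drift, as the median deviation of neighbouring assays, spanned 3.04 log2 units in healthy 5, 2.78 in DNBS 5 and 2.10 in CEC 1, against 0.68 in Nissle 3. Member differences with an unadjusted limma p under 0.05 are therefore given with and without centring on the neighbouring rows. This alternative was chosen after seeing the data. Tnfrsf4, Tnfsf14 and Tnfsf13b, also near the start of a block, are given below by uncentred means. In CEC against DNBS centring moved their differences from -0.33 to -0.67, from -0.46 to -0.89 and from 0.24 to -0.17. The 3 assays for epithelial genes of the ileum (Apoa1 and Reg3g) gave values in all 20 samples, with mean levels between 8.64 and 9.43 in the 4 groups. In CEC against DNBS the Apoa1 assays differed by 1.59 and 1.16 (limma adjusted p = 0.385 for both, unadjusted p under 0.05) and Reg3g by -0.38, and the part of epithelium in the members' differences was not tested. In such bulk RNA, fewer cells of a type and less RNA per cell cannot be told apart.

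**Figure D1:**
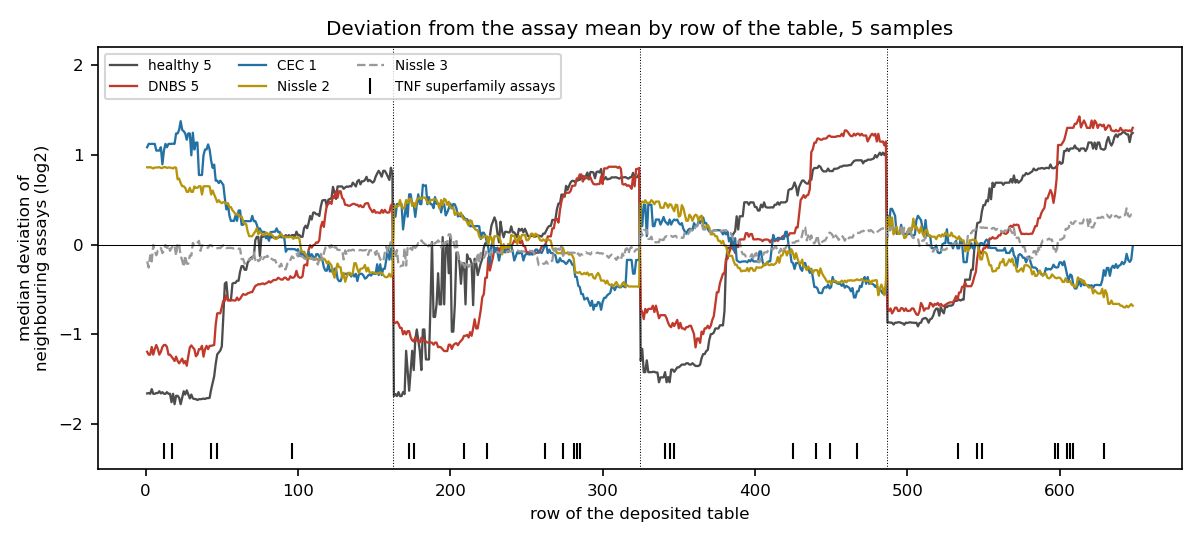
Median deviation of neighbouring assays from their assay means (y axis, log2) against the row of the deposited table (x axis) in 5 samples, with ticks at the rows of the TNF superfamily assays and dotted lines between the 4 blocks of rows. The line of healthy 5 spans 3.04 and that of DNBS 5 spans 2.78, both running from low to high within a block, while that of Nissle 3 spans 0.68.

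The TNF superfamily consists of trimeric ligands, most of them made at the cell surface and some shed from it, and of receptors that gather in threes around them. Receptors with a death domain, such as Fas and Tnfrsf1a, can start apoptosis, while many others recruit TRAF adaptors and activate NF-kB. In the gut, lymphotoxin shapes Peyer's patches and lymphoid follicles, costimulatory members tune T and B cell responses, and TNF itself is a mediator of intestinal inflammation.

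Of the 30 assays, 23 had a value in all 20 samples, 5 in some samples and 2 in none. Tnf, the founding ligand and a main inflammatory cytokine, was listed at Ct 40 in all 20 samples, in the groups given DNBS as in the healthy group. Tnfrsf19, the receptor TROY, likewise had no value in any sample. Both stand among 26 assays of the whole table that never gave a value, so an absent value says that the assay did not amplify, not that the transcript was absent. Ltb, the lymphotoxin beta subunit, whose gene lies next to Tnf in the annotation with no gene between them, had a value in all 20 samples, with a median Ct of 22.7.

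The bases upstream of these neighbours are shown because one assay amplified in every sample and the other in none, and those of Tnfrsf9, the receptor 4-1BB described below, because its window also holds a match. The sequences are the 250 bases before the transcription start in RefSeq GRCm38.p6, 5′ to 3′ on the strand of the gene: chr17:35194257-35194506 on the plus strand for Ltb, chr17:35202008-35202257 on the minus strand for Tnf, and chr4:150927749-150927998 on the plus strand for the downstream of 2 annotated starts of Tnfrsf9. Capitals mark letters that match the NF-kB consensus on either strand.
Ltb: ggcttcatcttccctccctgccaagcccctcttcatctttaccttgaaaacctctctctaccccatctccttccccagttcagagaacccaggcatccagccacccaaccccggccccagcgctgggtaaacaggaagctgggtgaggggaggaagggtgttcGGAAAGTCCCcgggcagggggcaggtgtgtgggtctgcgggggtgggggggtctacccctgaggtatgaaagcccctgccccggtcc
Tnf: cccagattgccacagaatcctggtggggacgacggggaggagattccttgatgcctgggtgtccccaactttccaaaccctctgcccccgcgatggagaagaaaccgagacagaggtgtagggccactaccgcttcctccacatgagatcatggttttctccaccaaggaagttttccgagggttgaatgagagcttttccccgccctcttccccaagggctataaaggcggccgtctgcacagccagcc
Tnfrsf9: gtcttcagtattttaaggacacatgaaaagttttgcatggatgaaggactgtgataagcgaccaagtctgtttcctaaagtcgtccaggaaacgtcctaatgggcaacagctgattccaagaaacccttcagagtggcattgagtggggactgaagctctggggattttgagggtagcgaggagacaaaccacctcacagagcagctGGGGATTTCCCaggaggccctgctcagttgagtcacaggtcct
The match in Ltb starts 87 bases before the transcription start. Tnfrsf9 has 2 overlapping matches, which start 43 and 42 bases before it. Windows of 300 bases, from 250 before to 50 after the start, were at hand for 22 of the 29 genes, in 26 windows, and 4 of these held a match on either strand (Ltb, Tnfrsf8 and 1 window each of Tnfrsf9 and Tnfrsf25). Over all 32851 such windows of the annotation, 2779 (8.46%) held one. The window of Tnf held none, which says only that these letters do not occur in it. Those of Ltbr, Tnfrsf1a and Fas held none either, and their assays had a value in all 20 samples. The window of Tnfrsf8 held 2 matches, and its assay had a value in 18 samples. A tie between matches and detection was not tested. A match is a description of the letters and not a bound site. Cd40, Cd40lg, Cd70, Tnfsf4, Tnfsf9, Tnfsf12 and Tnfrsf11b are named without a sequence.

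The members detected in part of the samples were 4 ligands of costimulatory receptors and the receptor Tnfrsf8. Tnfsf18, the ligand of the receptor GITR, had a value in 3 of 5 healthy samples, in 0 of 5 DNBS samples, in 0 of 5 CEC samples and in 3 of 5 Nissle samples, at Ct 29.2 to 31.2. Cd70, the ligand of CD27, had a value in 1 healthy sample and 2 Nissle samples and in none of the DNBS or CEC samples. Both ligands were thus detected only in healthy and Nissle samples, but with few values in either group. The Nissle values of Tnfsf18 came from Nissle 2, 4 and 5 and those of Cd70 from Nissle 1 and 5, and Nissle 4 and 5 are among the samples with the contradictory label. Tnfsf4, the ligand of OX40, showed another order, with values in 3 healthy, 4 DNBS, 1 CEC and 1 Nissle samples. Cd40lg, the T cell ligand that licenses B cells through CD40, lacked a value only in CEC 1. The neighbouring genes Tnfsf4, Tnfsf18 and Fasl, which follow each other in the annotation, differed in detection, since Fasl had a value in all 20 samples.

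None of these differences in detection passed Fisher's exact test (two-sided). The smallest unadjusted p among the members was 0.167, for Tnfsf18 in each of the 4 comparisons of a group with 3 values against a group with 0, and its Benjamini-Hochberg adjusted p was 1. Over all 78 assays with values in some samples only, 0 were called in any of the 6 comparisons (percent called 0), and 11 of 468 tests had an unadjusted p under 0.05. With 5 samples against 5 this test can reach 0.00794 at the lowest. After adjustment over 78 assays, full separation of a lone assay would not pass 0.05. The 0 calls were thus nearly fixed in advance and do not speak against a difference in detection.

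Tnfrsf8, the receptor CD30 of activated lymphocytes, was the latest assay of the table. Its values lay between Ct 31.7 and 38.9, with a median of 34.3, and no other assay had a median above cycle 32. It gave 17 of the 33 values above cycle 32 and all 7 values above cycle 36 in the whole table of 11686 values, and the highest Ct of any other member was 31.6. Healthy 3 and healthy 6 had no value. Of its 18 values, 10 lay below Ct 35: 2 in the healthy, 4 in the DNBS, 1 in the CEC and 3 in the Nissle group. Its levels spread over several cycles within the CEC group, from -15.55 in CEC 3 to -8.38 in CEC 8. The difference between CEC and DNBS was -2.17, with a 95% interval from -5.21 to 0.87, so that at these late cycles a change of several cycles was not detectable.

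**Figure D2:**
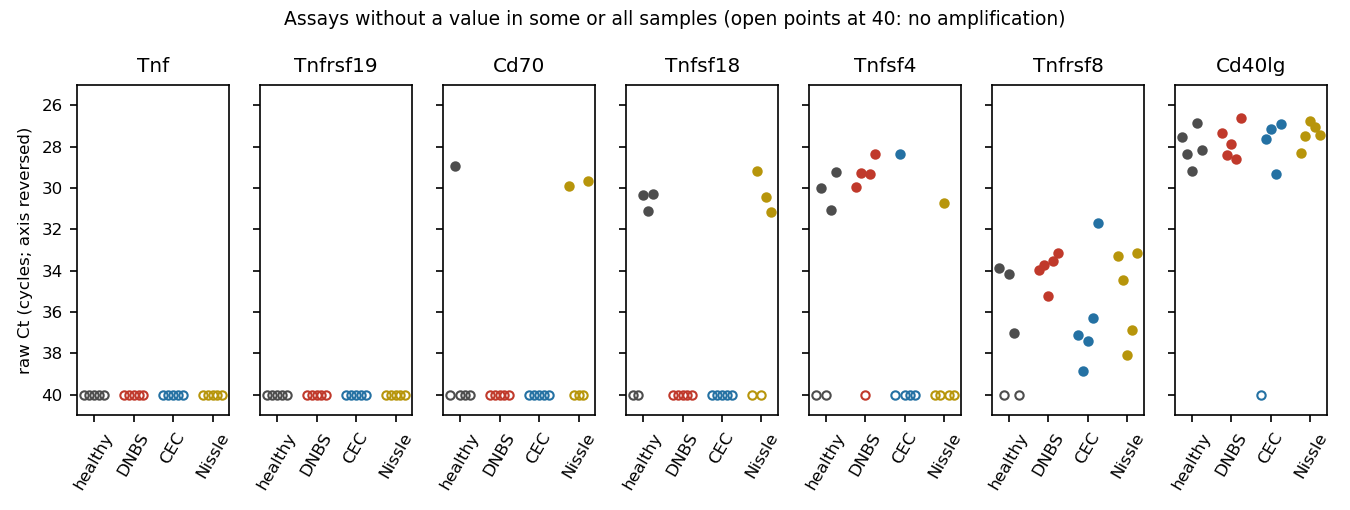
Raw Ct (y axis, reversed so that more RNA is higher) of the 7 assays without a value in some or all samples, by group (x axis), 1 point per sample, with open points at 40 for no amplification. Tnf and Tnfrsf19 lie at 40 throughout, Tnfsf18 and Cd70 have values only in healthy and Nissle samples, and Tnfrsf8 lies between 31.7 and 38.9.

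For 25 of the member assays each group had 3 or more values, and these were tested with limma on all 20 samples, with Benjamini-Hochberg adjustment over all 569 assays tested. No member passed an adjusted p of 0.05 in any of the 6 comparisons. In DNBS against healthy 0 of 25 were called, beside 0.176% of all assays, in CEC against healthy 0 beside 0.176%, and in Nissle against healthy 0 beside 0.176%. In CEC against DNBS, Nissle against DNBS and CEC against Nissle 0 were called, beside 0% of all assays. The 1 assay behind the 0.176% was Atrn, which is no member. The 3 comparisons with the healthy group share its samples, and those with the DNBS group share the DNBS samples. No member had 2 groups free of overlap in any comparison. Over all assays, groups did not overlap in DNBS against healthy for 2.28% (higher) and 2.46% (lower), in CEC against healthy for 0.351% and 0.527%, and in Nissle against healthy for 0.527% and 2.46%. The shares were 1.93% and 1.23% in CEC against DNBS, 0.176% and 0.879% in Nissle against DNBS, and 0.351% and 0% in CEC against Nissle.

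At an unadjusted limma p under 0.05 the counts of members were 1 in DNBS against healthy (14.6% of all assays), 2 in CEC against healthy (3.87%), 1 in Nissle against healthy (9.49%), 3 in CEC against DNBS (10.7%), 1 in Nissle against DNBS (4.22%) and 1 in CEC against Nissle (1.41%). Together these are 9 of 150 member tests, or 6%, against 7.38% over all assays and comparisons, and they fall on 7 assays. The members' share over the 6 comparisons was below that of the table, so these 9 differences are described here by their values and not as changes. The smallest adjusted p of a member in each comparison was 0.298, 0.803, 0.488, 0.385, 0.850 and 0.998, in the same order. Centred on neighbouring rows, 3 of these 9 differences kept an unadjusted p under 0.05 and 6 did not, while 5 others came under it. Those 5 were Fas (-0.88) and the Mm00441875 assay of Tnfrsf1a (0.38) in DNBS against healthy, Tnfrsf11b (1.37) and Tnfrsf1b (0.65) in Nissle against healthy, and Tnfsf11 (0.81) in Nissle against DNBS. The smallest adjusted limma p among the 5 was 0.193, for Fas. The median standard error of a member's difference was 0.45, against 0.42 over all assays.

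The median log2 difference of the 25 members was 0.07 in DNBS against healthy (all assays -0.07), -0.12 in CEC against healthy (-0.08) and -0.01 in Nissle against healthy (-0.10). Against DNBS it was -0.33 in CEC (all assays -0.02) and -0.13 in Nissle (-0.06), and between CEC and Nissle it was -0.19 (0.06). Against healthy, 40% of the members were lower in DNBS (all assays 55.4%), 72% in CEC (56.1%) and 52% in Nissle (57.8%). In CEC against Nissle 68% were lower (all assays 40.2%). In CEC, 17 of 25 members (68%) were lower than in DNBS, beside 52.0% of all assays. Under raw Ct, quantile normalisation or scaling to reference assays 17 or 18 were lower, but on raw Ct the median of all assays was itself -0.21. The size of the members' median in CEC against DNBS moved with the settings: it was -0.12 when centred on neighbouring rows (all assays -0.02) and -0.11 with array weights (0.01). In CEC against Nissle it ranged from -0.59 on raw Ct (all assays -0.33) to -0.08 with array weights (0.06). In Nissle against DNBS, 17 of 25 members were lower, beside 55.0% of all assays. However, 8 were lower on raw Ct, where the median of all assays was 0.14, and 11 under scaling to reference assays.

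**Figure D3:**
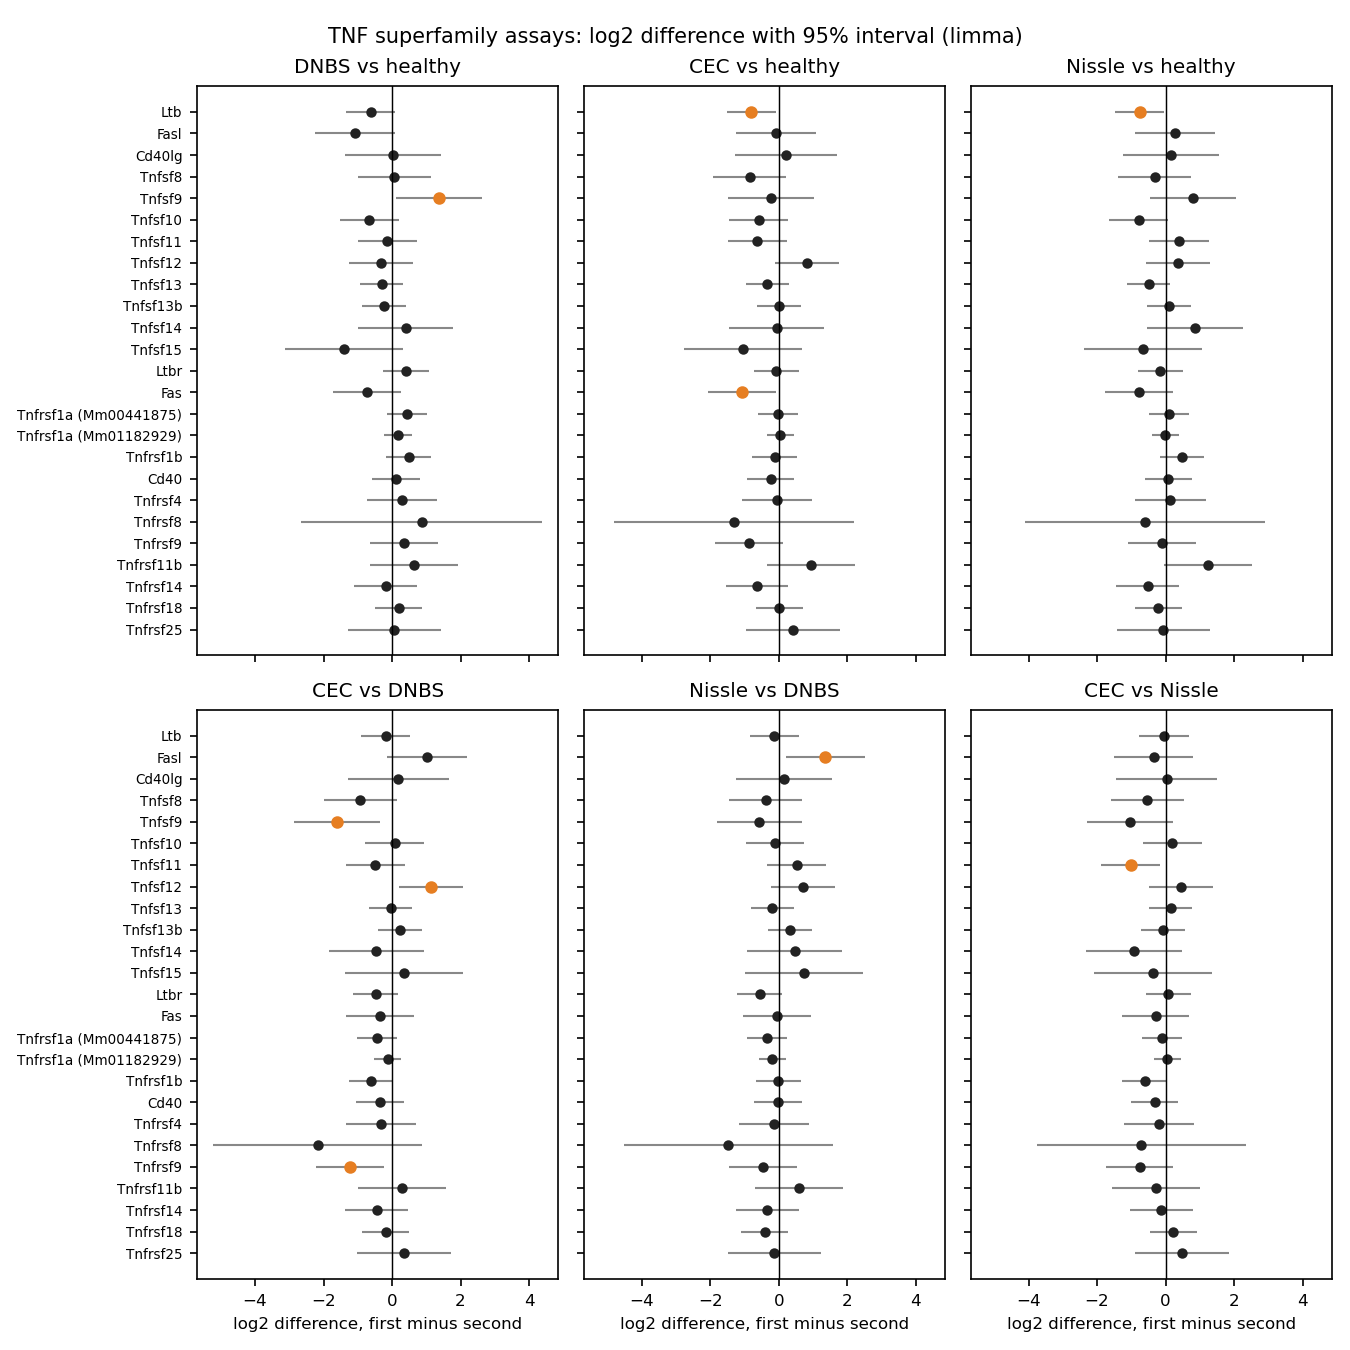
Log2 difference with 95% interval from limma (x axis) for the 25 tested member assays (y axis) in each of the 6 comparisons, orange where the unadjusted p is under 0.05. Intervals of most assays include 0, orange points occur 9 times over 7 assays, and Tnfrsf8 has the widest intervals.

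Among the ligands, Ltb forms with lymphotoxin alpha the membrane-bound lymphotoxin heterotrimer that signals through Ltbr. Levels are given in the order of the sample names above. Ltb stood at 0.99, 0.79, 0.94, 1.96 and 1.71 in the healthy samples, and at 0.35, 0.0044, 0.57, 1.13 and 1.20 in the DNBS samples. Healthy 5 and healthy 6 were higher than every sample of the other groups. It stood at -0.34, 0.96, 0.40, 0.50 and 0.83 in the CEC samples, and at -0.069, 0.19, 0.99, 1.41 and 0.065 in the Nissle samples. CEC overlapped healthy through CEC 3 and CEC 8, and Nissle overlapped it through Nissle 3 and Nissle 4. The group means were 1.28 ± 0.52 (SD, n = 5) in healthy, 0.65 ± 0.51 in DNBS, 0.47 ± 0.51 in CEC and 0.52 ± 0.65 in Nissle. Against healthy, Ltb differed by -0.81 in CEC (95% interval -1.53 to -0.09, limma adjusted p = 0.803) and by -0.76 in Nissle (-1.48 to -0.041, adjusted p = 0.488), and by -0.63 in DNBS (-1.35 to 0.09, adjusted p = 0.408). Centred on neighbouring rows the first was -0.63 and the second -0.58, neither with an unadjusted p under 0.05, and on raw Ct the second was -0.32. The second also depended on the doubtful labels, since it was -1.22 (adjusted p = 0.155) without Nissle 3, 4 and 5.

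Cr2, the complement receptor of B cells and follicular dendritic cells and the 1 B cell marker with an assay, lay at mean levels of -2.05, -2.68, -3.22 and -3.97 in the healthy, DNBS, CEC and Nissle groups. Its samples ranged from -2.41 to -1.12 in healthy, from -3.65 to -1.92 in DNBS, from -6.33 to -1.81 in CEC, and from -5.73 to -3.15 in Nissle. Nissle and healthy did not overlap, and their difference of -1.91 had a limma adjusted p of 0.488. CEC 1 was the lowest sample of all 20 for both Cr2 and Ltb. Nissle 5, the next lowest for Cr2 at -5.73, had Ltb at 0.065. Nissle 3 and Nissle 4 had Cr2 at -3.33 and -3.42, below every healthy sample. Their Ltb levels of 0.99 and 1.41 nevertheless lay within the healthy range. B cells are a known source of Ltb, and the part of this marker in the values of Ltb was not tested. Ltbr, the receptor of the lymphotoxin heterotrimer, differed by 0.41 in DNBS against healthy (95% interval -0.25 to 1.07) and by -0.07 in CEC against healthy (-0.73 to 0.59).

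Tnfsf9, the ligand of the costimulatory receptor 4-1BB, had the lowest adjusted p of the members against healthy. Tnfsf9 stood at -1.78, -3.69, -2.66, -2.45 and -2.80 in the healthy samples, and at -2.31, -0.98, -1.08, -0.52 and -1.63 in the DNBS samples. Of the DNBS samples 4 of 5 were higher than every healthy sample, and DNBS 1 lay within the healthy range. Tnfsf9 levels were -2.84, -1.54, -2.75, -5.24 and -2.16 in the CEC samples, and -0.22, -3.09, -1.78, -2.19 and -2.07 in the Nissle samples. CEC 7 was the lowest and Nissle 1 the highest of all 20 samples. The group means were -2.68 ± 0.69 (SD, n = 5) in healthy, -1.31 ± 0.69 in DNBS, -2.91 ± 1.41 in CEC and -1.87 ± 1.04 in Nissle. DNBS and healthy differed by 1.37, or 2.59-fold (95% interval 0.12 to 2.62 in log2, limma adjusted p = 0.298). CEC and DNBS differed by -1.60, a 3.03-fold difference (95% interval -2.85 to -0.35, limma adjusted p = 0.385). Without CEC 7 the second difference was -1.02, and it was no longer at an unadjusted p under 0.05. Centring on neighbouring rows left the differences at 1.36 and -1.33, both with an unadjusted p above 0.05.

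The 8 assays on the neutrophil marker list were all higher in DNBS than in healthy, with a mean level of -2.57 in healthy and -0.45 in DNBS. The differences were uneven: S100a8 differed by 4.42 and 3.83 in its assays, S100a9 by 3.96, Il8rb by 2.45 and Ltf by 1.83. Fpr1, Camp and Ncf1 differed by only 0.09, 0.14 and 0.19. Their sample means ranged from -3.29 to -1.71 in healthy, from -2.25 to 0.79 in DNBS, from -2.82 to 0.45 in CEC and from -2.43 to 2.66 in Nissle, with Nissle 1 at the upper end. None of the 8 was called by limma, and 4 had an unadjusted p under 0.05. Nissle 1 was thus highest for both this list and Tnfsf9, and it was also the highest of all 20 samples for Selp (0.31). Other samples differed between the list and Tnfsf9. CEC 1 had a list mean of 0.016, above every healthy sample, with Tnfsf9 at -2.84, within the healthy range. DNBS 5 had the lowest list mean of its group (-2.25), with Tnfsf9 at -1.63, above every healthy sample. The part of neutrophils in the values of Tnfsf9 was not tested.

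Tnfrsf9, the receptor 4-1BB itself, is induced on activated T cells. Tnfrsf9 stood at -1.99, -2.62, -2.90, -0.96 and -2.03 in the healthy samples, and at -2.19, -1.88, -2.38, -1.64 and -0.61 in the DNBS samples. These groups overlapped widely. Tnfrsf9 levels were -4.55, -2.76, -2.14, -3.01 and -2.35 in the CEC samples, and -1.79, -2.97, -2.15, -1.55 and -2.56 in the Nissle samples. CEC 1, CEC 3 and CEC 7 were lower than every DNBS sample, and the other CEC samples lay within the DNBS range. CEC and DNBS had means of -2.96 ± 0.95 and -1.74 ± 0.69 (SD, n = 5) and differed by -1.22, a 2.34-fold difference (95% interval -2.21 to -0.23, limma adjusted p = 0.385), or by -0.92 when centred. Without CEC 1 the difference was -0.83 and without DNBS 5 it was -0.94, neither with an unadjusted p under 0.05. The ligand Tnfsf9 and its receptor thus had different CEC samples at the bottom, CEC 7 for the ligand and CEC 1 for the receptor.

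Fasl, the death ligand of cytotoxic lymphocytes, sits in row 12 of the first block of the table, and the drift is given beside its values. Fasl stood at -2.84, -3.33, -1.85, -4.81 and -3.13 in the healthy samples, and at -4.79, -3.0, -4.0, -4.18 and -5.41 in the DNBS samples. Healthy 5 and DNBS 5 were the lowest of their groups, with neighbouring rows 1.66 and 1.12 below average, and DNBS 1 was next in its group, with neighbours 1.47 below. Fasl levels were -2.29, -3.04, -2.56, -4.96 and -3.46 in the CEC samples, and -3.21, -2.56, -3.19, -2.92 and -2.68 in the Nissle samples. All DNBS samples other than DNBS 2 were lower than every Nissle sample. Nissle and DNBS had means of -2.91 ± 0.29 and -4.27 ± 0.90 (SD, n = 5) and differed by 1.36 (95% interval 0.20 to 2.53, limma adjusted p = 0.850). The neighbouring rows alone differed by 0.70, and the centred difference was 0.67. DNBS and healthy differed by -1.08 (95% interval -2.25 to 0.08, adjusted p = 0.396), or by -0.72 when centred. In CEC against DNBS the difference of 1.01 became 0.08 when centred, and the neighbouring rows differed by 0.93.

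Fas, the receptor of Fasl, showed a wide spread in healthy tissue. Fas stood at 1.39, 3.22, 0.47, 2.05 and 1.25 in the healthy samples, and at 0.84, -0.28, 1.30, 0.65 and 2.21 in the DNBS samples. Healthy 3 was the highest of all 20 samples, and both groups spanned more than 2 cycles. Fas levels were -0.20, -0.20, 1.29, 1.15 and 0.95 in the CEC samples, and 0.32, 0.68, 0.88, 1.45 and 1.13 in the Nissle samples. Of the healthy samples, 1b, 3 and 5 were higher than every CEC sample. CEC and healthy had means of 0.60 ± 0.74 and 1.68 ± 1.03 (SD, n = 5) and differed by -1.08, a 2.11-fold difference (95% interval -2.07 to -0.088, limma adjusted p = 0.803), or by -0.89 when centred. Without healthy 3 the difference was -0.69, and it was no longer at an unadjusted p under 0.05. Against healthy, Fas differed by -0.73 in DNBS (95% interval -1.72 to 0.26) and by -0.78 in Nissle (-1.78 to 0.21).

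Tnfsf12, the ligand TWEAK, sits in row 47 of the first block. Its assay also lists the read-through transcript of Tnfsf12 and Tnfsf13, so RNA of that transcript cannot be told apart from RNA of the gene. Tnfsf12 stood at -1.89, -1.25, -1.57, -3.79 and -2.82 in the healthy samples, and at -2.87, -2.02, -2.35, -2.35 and -3.38 in the DNBS samples. Healthy 5 and DNBS 5, the samples with the widest drift, were the lowest of their groups. Tnfsf12 levels were -0.99, -0.98, -1.81, -2.04 and -1.42 in the CEC samples, and -2.41, -0.89, -2.06, -2.34 and -1.76 in the Nissle samples. Every CEC sample other than CEC 7 was higher than every DNBS sample. CEC and DNBS had means of -1.45 ± 0.48 and -2.60 ± 0.53 (SD, n = 5) and differed by 1.15, a 2.21-fold difference (95% interval 0.22 to 2.08, limma adjusted p = 0.385). The neighbouring rows differed by 0.68, and the centred difference was 0.47, no longer at an unadjusted p under 0.05. Tnfsf13, the B cell survival factor APRIL, whose assay lists the same read-through transcript, had means from -0.08 in Nissle to 0.41 in healthy and differed by -0.04 between CEC and DNBS (95% interval -0.66 to 0.59).

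Tnfsf11, the ligand RANKL, guides the formation of M cells over Peyer's patches. Tnfsf11 stood at -3.63, -4.04, -4.02, -2.57 and -3.54 in the healthy samples, and at -4.19, -3.67, -3.56, -3.60 and -3.45 in the DNBS samples. DNBS samples lay within the healthy range apart from DNBS 1. Tnfsf11 levels were -4.67, -4.90, -3.98, -3.88 and -3.51 in the CEC samples, and -2.21, -3.97, -3.08, -2.84 and -3.75 in the Nissle samples. CEC 1 and CEC 3 were the lowest of all 20 samples, and Nissle 1 was the highest. CEC and Nissle had means of -4.19 ± 0.58 and -3.17 ± 0.71 (SD, n = 5) and differed by -1.02, a 2.02-fold difference (95% interval -1.88 to -0.15, limma adjusted p = 0.998), or by -0.93 when centred. Without Nissle 1 the difference was -0.78, and it was no longer at an unadjusted p under 0.05. Tnfrsf11b, the decoy receptor osteoprotegerin that binds RANKL, had its lowest levels in healthy 1b (-4.74) and healthy 5 (-4.66), and the other healthy samples lay between -2.15 and -1.23. Its mean was -2.85 ± 1.72 (SD, n = 5) in healthy and -1.62 ± 0.52 in Nissle, a difference of 1.23 (95% interval -0.051 to 2.51, limma adjusted p = 0.500) that became 1.37 when centred, then with an unadjusted p under 0.05.

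**Figure D4:**
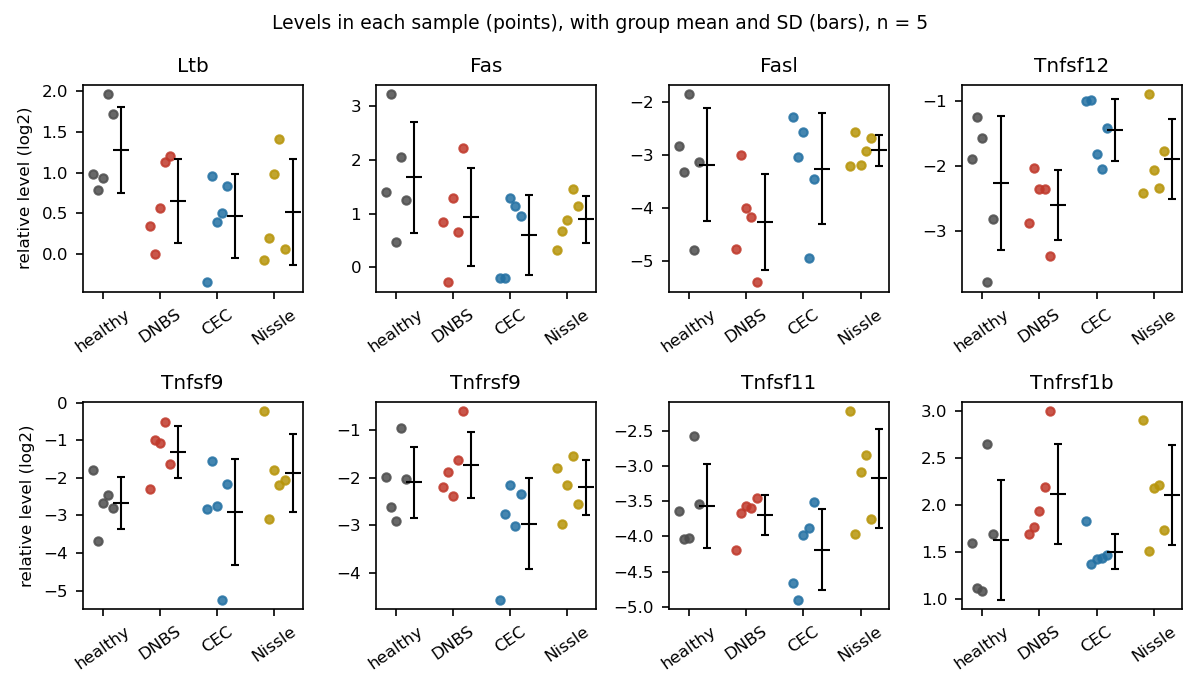
Relative level (y axis, log2) of 8 members in each sample (points) by group (x axis), with the group mean and SD as bars, n = 5. Groups overlap in every panel, with single samples such as Nissle 1 for Tnfsf9 (-0.22) and CEC 1 for Tnfrsf9 (-4.55) at the edges.

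The other ligands are given by their group means. Tnfsf10, the death ligand TRAIL, had means of 3.02 ± 0.28 (SD, n = 5) in healthy, 2.35 ± 0.55 in DNBS, 2.43 ± 0.94 in CEC and 2.24 ± 0.82 in Nissle. Its differences from healthy were -0.67 in DNBS, -0.59 in CEC and -0.78 in Nissle, with 95% intervals of -1.53 to 0.19, -1.45 to 0.27 and -1.64 to 0.08. CEC 1 and Nissle 1 were the lowest samples, at 0.93 and 0.88. Tnfsf13b, the B cell survival factor BAFF, had means from -0.56 in DNBS to -0.23 in Nissle, and its difference between DNBS and healthy had a 95% interval from -0.88 to 0.41. Tnfsf8, the ligand of CD30, had means of -3.39 in healthy, -3.32 in DNBS, -4.24 in CEC and -3.71 in Nissle, and in CEC the lowest sample was CEC 1 at -5.42. Tnfsf14 (LIGHT), which binds Tnfrsf14 and Ltbr, had means from -4.87 in CEC to -3.95 in Nissle, and its widest spread lay in CEC, from -7.29 in CEC 7 to -3.02 in CEC 3. Tnfsf15 (TL1A), the ligand of Tnfrsf25 and a gene tied to inflammatory bowel disease, had the largest mean difference of a ligand between DNBS and healthy, -1.41, with a 95% interval from -3.13 to 0.32. The DNBS mean includes DNBS 2 at -7.63, while the other DNBS samples lay between -4.87 and -2.88. Cd40lg had means of -4.46 ± 1.22 (SD, n = 5) in healthy, -4.45 ± 1.21 in DNBS, -4.26 ± 0.61 (n = 4) in CEC and -4.29 ± 1.06 in Nissle.

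Receptors of TNF itself were detected in every sample although the ligand was not. Tnfrsf1b, the TNF receptor of leukocytes, had means of 1.62 ± 0.64 (SD, n = 5) in healthy, 2.11 ± 0.53 in DNBS, 1.5 ± 0.18 in CEC and 2.10 ± 0.53 in Nissle. Its difference between CEC and DNBS was -0.61 (95% interval -1.27 to 0.040, limma adjusted p = 0.476), and between CEC and Nissle -0.60 (-1.26 to 0.050, adjusted p = 0.998). Every DNBS and Nissle sample was higher than 4 of the 5 CEC samples, and CEC 1 lay within both groups. The neighbouring rows differed by -0.35 between CEC and DNBS and by -0.14 between CEC and Nissle. Centred on them, the differences of Tnfrsf1b were -0.26 and -0.46. The 2 assays of Tnfrsf1a, the widely expressed TNF receptor with a death domain, gave means from 3.21 to 3.66 (Mm00441875) and from 3.66 to 3.85 (Mm01182929). As a check of how far 2 assays of 1 gene track each other, the level of the second minus that of the first was taken in each sample. Its mean reflects the assays as well as the RNA. It averaged 0.37 ± 0.33 (SD over 20 samples) and ranged from -0.38 in DNBS 5 to 0.77 in CEC 1. In DNBS against healthy the first gave 0.43 (95% interval -0.15 to 1.01) and the second 0.18 (-0.22 to 0.58). The first lies in the second block of the table and the second in the third block.

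The remaining receptors showed no difference with an unadjusted limma p under 0.05. Cd40, the receptor of antigen-presenting cells for Cd40lg, had means between -0.74 in CEC and -0.39 in DNBS. Tnfrsf14 (HVEM), an epithelial and lymphoid receptor of LIGHT, had means of 3.77 in healthy, 3.59 in DNBS, 3.13 in CEC and 3.25 in Nissle, with Nissle 1 and CEC 1 lowest at 2.08 and 2.10. Tnfrsf4 (OX40) had means from -2.93 in CEC to -2.60 in DNBS, and Tnfrsf18 (GITR), its neighbour in the annotation, from -3.09 in Nissle to -2.68 in DNBS. Tnfrsf25, the death receptor that binds TL1A, had means from -4.88 in Nissle to -4.40 in CEC, and its 95% interval in DNBS against healthy ran from -1.30 to 1.42. The T cell marker list (Cd28, Cd4, Ctla4 and Icos, 4 assays with values in all samples) lay at means of -1.89, -1.96, -1.97 and -1.92 in the healthy, DNBS, CEC and Nissle groups. Its sample means ranged from -2.28 to -1.20 in healthy, from -2.37 to -1.65 in DNBS, from -2.47 to -1.47 in CEC and from -2.26 to -1.37 in Nissle. Within that list Cd4 differed by -0.80 and Ctla4 by 1.02 in DNBS against healthy (limma adjusted p = 0.229 and adjusted p = 0.247). The part of T cells in the values of the costimulatory receptors was not tested.

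**Figure D5:**
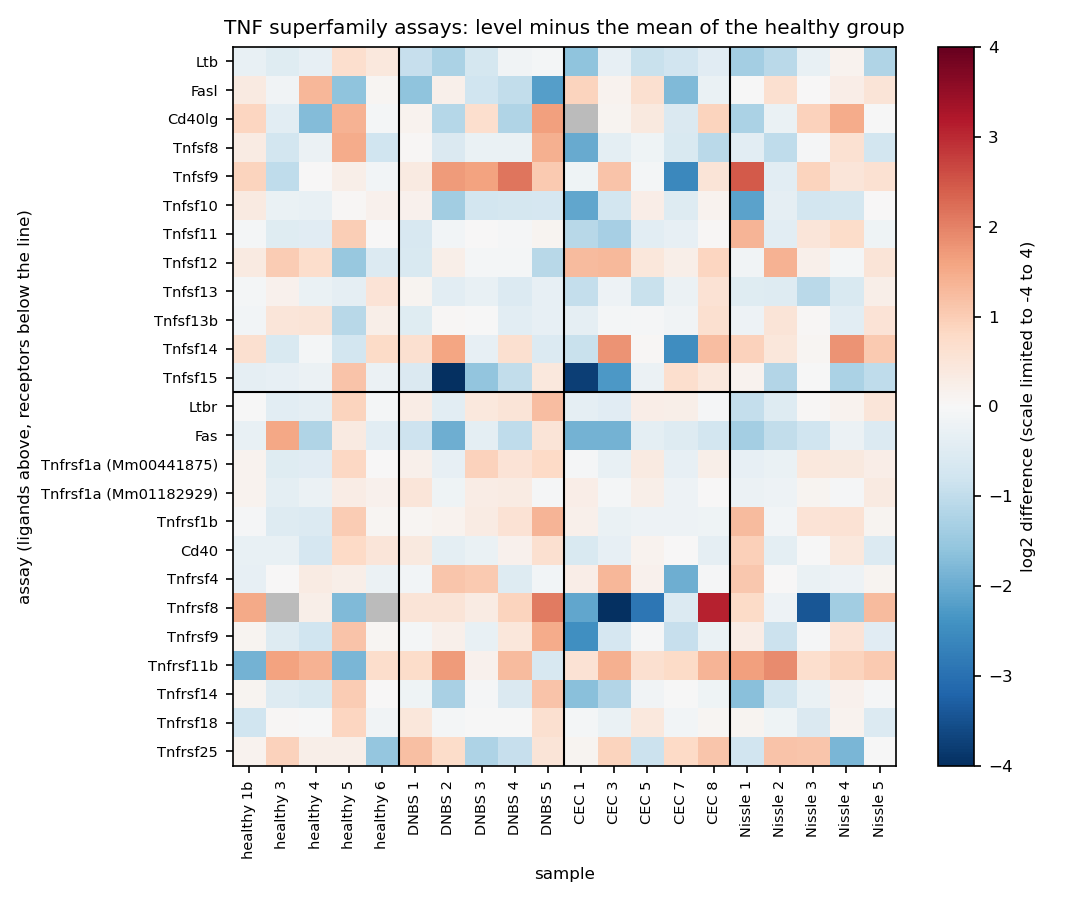
Level minus the mean of the healthy group (colour, log2, limited to -4 to 4) for the 25 tested member assays (rows, ligands above the line and receptors below) in the 20 samples (columns), with grey for no value. Columns such as healthy 5, DNBS 5 and CEC 1 differ from the rest of their groups over many rows, and Tnfrsf8 varies most.

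Single samples ran through many members. Over the 23 members with a value in every sample, healthy 5 was the highest of its group in 12 and DNBS 5 in 11, while DNBS 2 and CEC 1 were each the lowest of their group in 11. Nissle 1 was the highest in 6 and the lowest in 9. Healthy 5, DNBS 5 and CEC 1 are also the samples with the widest drift along the rows, and the part of the drift in these counts was not tested.

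Of 46 genes listed as acting next to the superfamily, 7 had an assay: Casp8, Ripk2, Nfkb1, Rela, Tnfaip3, Ccl19 and Sele. The 6 with enough values were tested, and by limma 0 were called and 0 had an unadjusted p under 0.05 in any comparison. They were higher and lower in 1 and 5 assays in DNBS against healthy, 1 and 5 in CEC against healthy, and 2 and 4 in Nissle against healthy. Casp8, the caspase started by death receptors, differed from healthy by -0.53 (SE 0.31) in CEC and by -0.56 (SE 0.31) in Nissle, with limma adjusted p = 0.803 and adjusted p = 0.516. Against DNBS it differed by -0.41 in CEC and by -0.44 in Nissle, with the same standard error. Rela, a subunit of NF-kB, differed from healthy by -0.31 in DNBS, -0.36 in CEC and -0.35 in Nissle, each with a standard error of 0.24. Nfkb1, the p50 precursor, differed from DNBS by 0.65 (SE 0.45) in CEC and by 0.56 (SE 0.45) in Nissle. Tnfaip3, the deubiquitinase A20 that restrains TNF signalling, differed by -0.43 (SE 0.40) between CEC and Nissle and by -0.32 between CEC and DNBS. Ccl19, a lymphoid chemokine under lymphotoxin control, differed by -0.27 (SE 0.53) in DNBS against healthy and by 0.26 in Nissle against DNBS. Ripk2, a kinase that feeds NF-kB, differed by -0.09 (SE 0.26) between CEC and Nissle.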

How the data were processed

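Total RNA of ileal mucosa was isolated with the mirVana kit and measured on TaqMan OpenArray cards, per the labels' protocols. The deposited values are raw Ct values, with 40 where nothing amplified, per the file headers; the authors' other steps are not given in the sources used here. They are no counts, so no count model was used and precision rests on 5 samples a group. Values of 40 (9.82% of the table) were treated as missing. Each sample was scaled to its mean Ct over the 544 assays measured in all 20 samples. Assays measured 3 or more times in every group (569) were fitted with limma 3.58.1 in R 4.3.3 (4 group means, eBayes with trend, two-sided), with Benjamini-Hochberg adjustment over all 569 and a threshold of 0.05. Detection was tested with Fisher's exact test in scipy 1.17.1.

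Members, gene lists and marker lists were chosen with earlier results of these data known. By the rule for named genes, all sample values are printed for Tnf, Ltb and every member with an unadjusted p under 0.05, and of the pathway list the 3 assays with the smallest p in each comparison are named. Alternatives covered scaling, filters, missing values at 40, the groups in the fit, array weights, the doubtful Nissle labels, samples left out and the sample number as a replicate block. Deviations of same-numbered DNBS and healthy samples had correlations of 0.17, 0.14 and 0.38 for numbers 3, 4 and 5. Samples with different numbers were not correlated for comparison, so these values cannot show a pairing. The labels name no shared animal or batch. Healthy 5 and DNBS 5 are also the samples with the widest drift, and its part in their correlation was not tested. In the other comparisons same-numbered pairs ranged from -0.39 (Nissle and healthy 4) to 0.42 (CEC and Nissle 5). With the replicate block, 0 members were called in any comparison. The NF-kB consensus was searched on both strands of RefSeq windows. On simulated data for DNBS against healthy, 200 of 569 assays were changed at once, with independent noise and no drift along the rows. There, 84 of 100 changes of 1.5 log2 units and 97 of 100 changes of 3 were called, with 10 false calls. So many changed assays ease the adjusted threshold, so this checks the fit and gives no power for the members here. Drift by row was centred on the median deviation of assays within 15 rows of the same block.

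The marker lists other than those printed with the results gave 0 calls in each comparison. Macrophage and dendritic markers (8 assays) had mean levels of -1.31, -0.92, -0.59 and -0.60 in the healthy, DNBS, CEC and Nissle groups. The mast cell marker Kit (1 assay with all values) lay at 1.22, 0.51, 0.85 and 0.48, and 1 gene does not measure mast cell content. Against healthy, Kit differed by -0.71 in DNBS and -0.73 in Nissle (limma adjusted p = 0.163 and adjusted p = 0.488), and by -0.37 in CEC. The 3 eosinophil assays had mean levels of -2.53, -3.05, -2.75 and -2.68. They were uneven in DNBS against healthy: the assays of Ccr3 differed by -1.70 and -0.26, and Prg2 by 0.42. Selp, the 1 assay of the endothelial list with all values, lay at -3.96, -2.37, -2.88 and -1.93. Its healthy samples (-4.14 to -3.77) did not overlap those of DNBS (-3.43 to -1.71) or Nissle (-3.08 to 0.31). The limma adjusted p against healthy was 0.158 in DNBS and 0.458 in Nissle, and 1 gene does not measure endothelial content. No marker of the lists for cytotoxic cells and stroma was analysed here.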

Additional observations from a re-analysis of the deposited data

Results flagged for a closer look

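Within each group of 5, or of fewer where a value was missing, samples with a wide gap to the nearest other sample were singled out. The gap had to take up more of the group's range than chance gives in about 1 group of 20. Of 100 groups tested among the members, 3 met this, where chance gives about 5. Tnfrsf4, the receptor OX40, stood at -1.80 in Nissle 1, with the next Nissle sample at -2.77; its neighbouring rows lay at 0.46 in Nissle 1 and between -0.39 and 0.46 in the others. Tnfrsf1b, the TNF receptor of leukocytes, stood at 1.82 in CEC 1, with the next CEC sample at 1.46; its neighbouring rows lay at -0.34 in CEC 1 and between -0.46 and 0.12 in the others. Tnfsf15, the ligand TL1A, stood at -2.15 in healthy 5, with the next healthy sample at -3.52, and its healthy mean was -3.30 ± 0.64 (SD, n = 5). The rows next to Tnfsf15 lay at 1.06 in healthy 5 and between -0.30 and 0.11 in the other healthy samples. The part of the drift in this value was not tested.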

How the results depend on the processing

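The count of members called stayed at 0 in all 6 comparisons under every alternative with 1 exception. With limma array weights, which ranged from 0.28 to 2.33 between samples, 2 members were called in DNBS against healthy: Fasl (-1.44, adjusted p = 0.0384) and the Mm00441875 assay of Tnfrsf1a (0.69, adjusted p = 0.0403), while 90 assays of the whole table were. The replicate block gave 0 members in each comparison, and 2 assays of the whole table instead of 1 in DNBS against healthy. Leaving out each sample in turn gave 0 members throughout, and between 1 and 7 assays of the whole table in DNBS against healthy (7 without DNBS 5). With the 2 groups alone in the fit, 9 assays of the whole table were called there, and on raw Ct 0. The members' median difference ranged from -0.05 to 0.19 in DNBS against healthy and from -0.39 to -0.12 in CEC against DNBS over samples left out, and from -0.25 to -0.056 in CEC against Nissle. Over the other settings it ranged from -0.56 to -0.11 in CEC against DNBS and from -0.59 to -0.08 in CEC against Nissle. In Nissle against DNBS it turned from -0.13 to 0.08 on raw Ct, where the median of all assays moved from -0.06 to 0.14. Over all alternatives the adjusted p of Tnfsf9 in DNBS against healthy ranged from 0.0502 to 0.568. Detection gave 0 calls at Ct 35 as well, where the test has the same lowest p and could hardly call an assay. Tnfrsf8 gave 17 of the 33 values above cycle 32 and all 7 above cycle 36, so late cycles limit its values.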
